A study of Mus musculus with 6 samples.

Results

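GABA-A receptors are the chloride channels through which GABA inhibits neurons, and 7 of their subunit genes are described here: Gabra2, Gabra4, Gabra5, Gabrb1, Gabrb2, Gabrg1 and Gabrd. They were chosen by name from a table of 32067 genes, and each of the 7 had a row. The RNA came from the hippocampus of wild type female C57BL/6J mice aged 17 weeks, all of them bilaterally ovariectomised (OVX). Those in the OVX+RJ group (n = 3) had food containing 1% royal jelly, which honeybee workers secrete to feed larvae, from week 8 of life onwards, and those in the OVX group (n = 3) had control food over the same period. Each library is a separate biological replicate per the labels, and sham-operated mice are not analysed here.

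The receptor is a ring of subunits around a pore, built from alpha and beta subunits together with a gamma or a delta subunit. Receptors with a gamma subunit mostly sit at synapses and carry fast inhibition, while those with a delta subunit, and many with alpha5, sit outside synapses and carry tonic inhibition. In the hippocampus alpha5 is known for pyramidal cells, and alpha4 with delta for dentate granule cells, where these receptors respond to neurosteroids such as allopregnanolone, a metabolite of the ovarian hormone progesterone.

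Libraries held between 34718596.5 counts (OVX 1) and 58163785 counts (OVX 2). Levels are CPM, the counts of a gene scaled to the same total over all rows in every library. OVX+RJ 1 stood apart, with a mean Pearson r of 0.983 with the other libraries across genes (log2 CPM), against 0.986 to 0.987 for the rest, and the results without it are given below. Markers of cell types found in the hippocampus were present in every library. The summed level was 588 to 859 CPM for 12 markers of dentate granule cells and 617 to 697 CPM for 7 of CA1 pyramidal cells. It was 407 to 450 CPM for 9 of CA2 and CA3, and 1545 to 1725 CPM for 18 of GABA interneurons. Markers of thalamus or striatum summed to 78.4 to 94.9 CPM and those of the choroid plexus to 27.8 to 57.2 CPM. The 7 subunits had between 543 counts (Gabrd in OVX+RJ 1) and 13415 counts (Gabra5 in OVX 2) per library. In RNA from whole tissue, fewer cells of a type and less RNA per cell cannot be told apart.

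Of the 7 subunits, 4 lie in one cluster on mouse chromosome 5, in the order Gabrg1, Gabra2, Gabra4 and Gabrb1. The other 3 lie apart, Gabrd on chromosome 4, Gabra5 on 7 and Gabrb2 on 11. Gabra4 and Gabrb1 start head to head on opposite strands, and by their first RefSeq starts (GRCm38.p6) the 5′ ends of these genes share 388 bases. In the GENCODE M21 gene models 46 exon bases are shared, 0.756% of those of Gabra4 and 0.332% of those of Gabrb1. Whether reads were counted by strand is not given in the sources used here, and reads in that stretch could thus be counted for either gene. The same holds for 148 exon bases of Gabra5, 4.98% of its exons, which overlap the predicted antisense gene Gm9962. The windows of 250 bases before and 50 after the RefSeq starts are shown for the head-to-head pair and for Gabrb2, the subunit with the largest difference between the diets, each 5′ to 3′ on its own strand, with matches to the motifs named below in capitals.
Gabra4, chr5:71658259-71658558, minus strand: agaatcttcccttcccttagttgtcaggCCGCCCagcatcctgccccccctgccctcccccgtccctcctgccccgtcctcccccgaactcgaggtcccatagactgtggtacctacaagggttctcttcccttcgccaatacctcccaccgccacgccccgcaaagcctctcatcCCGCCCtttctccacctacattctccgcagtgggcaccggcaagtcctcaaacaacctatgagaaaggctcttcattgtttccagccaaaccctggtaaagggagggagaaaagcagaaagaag
Gabrb1, chr5:71657671-71657970, plus strand: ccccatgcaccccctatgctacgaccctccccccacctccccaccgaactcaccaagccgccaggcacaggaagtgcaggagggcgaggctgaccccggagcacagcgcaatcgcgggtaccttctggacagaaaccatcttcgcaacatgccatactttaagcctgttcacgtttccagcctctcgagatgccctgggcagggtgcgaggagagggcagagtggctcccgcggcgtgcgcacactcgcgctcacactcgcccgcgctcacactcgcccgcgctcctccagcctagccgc
Gabrb2, chr11:42420190-42420489, plus strand: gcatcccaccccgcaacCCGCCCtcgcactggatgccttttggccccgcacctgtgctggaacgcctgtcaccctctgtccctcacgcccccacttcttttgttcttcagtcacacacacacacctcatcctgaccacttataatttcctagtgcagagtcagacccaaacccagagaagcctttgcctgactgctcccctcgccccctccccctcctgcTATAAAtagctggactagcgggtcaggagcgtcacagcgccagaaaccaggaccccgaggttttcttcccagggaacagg

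RefSeq gave 9 such windows for 6 of the subunits, 2 for Gabrb1, 3 for Gabrb2 and 1 for each of the others. Both strands were searched. The GC box GGGCGG, a binding site of Sp1-type factors, was matched in a window of Gabra2, Gabra4 and Gabrb2, and in 35.7% of all 32851 windows of the table. The TATA box TATAAA was matched in Gabrb2 alone, against 13.6% of all windows. No window of a subunit held the letters of the Egr site GCGTGGGCG (0.612% of all windows), the cAMP response element TGACGTCA (1.79%), the AP-1 site TGAGTCA (5.2%), the E-box CACGTG of clock factors (7.15%), the estrogen response element, GGTCA and TGACC 3 bases apart (0.07%), or the glucocorticoid response element, AGAACA and TGTTCT 3 bases apart (0.00913%). These letters do not overlap one another in the 3 windows shown. GC made up 58.7% of the Gabra4 window, 66.0% of the first Gabrb1 window and 59.0% of the first Gabrb2 window, against 38.3% for Gabrg1.

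The question of the comparison is what a royal jelly diet changes after ovariectomy. None of the 7 subunits differed between OVX+RJ and OVX beyond the spread of the libraries. By the quasi-likelihood test of edgeR, adjusted after Benjamini and Hochberg over 18629 genes, the lowest adjusted p among them was 0.986. All 7 log2 fold changes were positive and small, from 0.012 for Gabra5 to 0.12 for Gabrb2, with a median of 0.027, while the median over all genes tested was -0.0015 and 49.6% of them were positive. The signs of the subunits are not independent of one another, since several shared their lowest library. Those of Gabra2, Gabra5, Gabrg1 and Gabrd also changed with single libraries, as given below. The same test called 0 genes in all (0.0% of those tested), with 754 at an unadjusted p under 0.05 (4.05%), and DESeq2 called 12 (0.0644%). Of the 7 subunits 0 were called by either and 0 had an unadjusted p under 0.05.

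**Figure D1:**
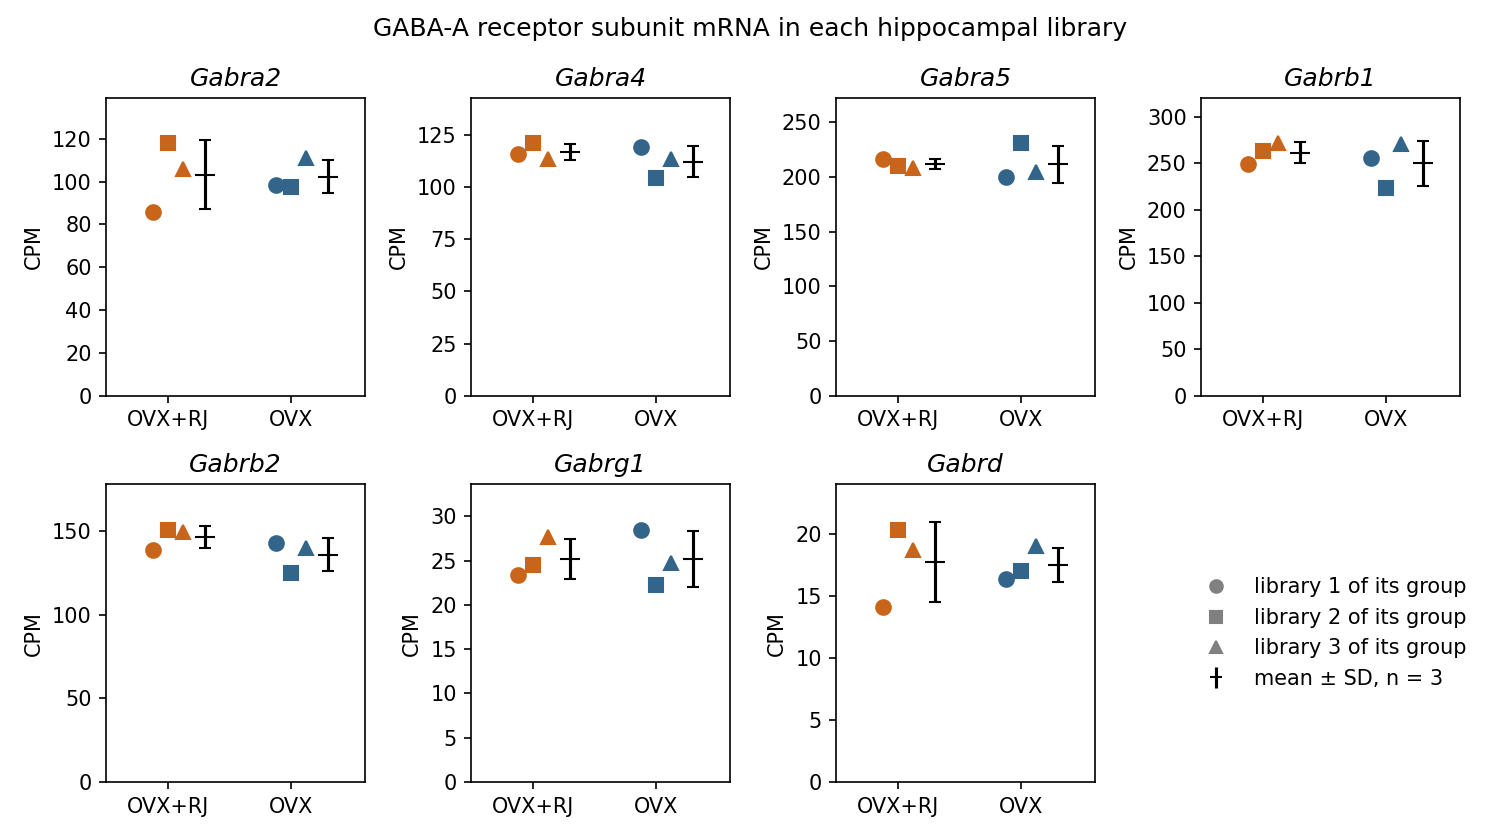
CPM (y axis, from 0) of each subunit in the 3 OVX+RJ libraries and the 3 OVX libraries, with a point per library and bars for the mean and SD (n = 3). In every panel the groups overlap, and OVX+RJ 1 is the lowest library for Gabra2 and Gabrd while OVX 2 is the lowest for Gabra4, Gabrb1, Gabrb2 and Gabrg1.

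Among the alpha subunits, which with beta form the GABA site, Gabra5 varied least in OVX+RJ relative to its mean. It stood at 217, 210 and 208 CPM in OVX+RJ 1, 2 and 3 and at 199.6, 231 and 204 CPM in OVX 1, 2 and 3. The OVX+RJ values lie inside the range of the OVX values, whose highest is OVX 2. Gabra5 averaged 211.5 ± 4.44 CPM (SD) in OVX+RJ, against 211.4 ± 16.8 CPM in OVX. Its log2 fold change was 0.012 (SE 0.068, edgeR adjusted p = 0.991). The limma 95% interval of this difference runs from -8.9% to 11.9%.

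Gabra4, the usual partner of delta in granule cells and insensitive to classical benzodiazepines, was at 116, 121 and 113 CPM in OVX+RJ 1, 2 and 3 and at 119, 104 and 114 CPM in OVX 1, 2 and 3. The groups overlap, and only OVX 2 lies below the other 5 libraries. The log2 fold change was 0.068 (SE 0.066, edgeR adjusted p = 0.986), with an interval from -5.2% to 16.0%. Gabra2, whose product is found at synapses and on the axon initial segment, was at 86.0, 118 and 106 CPM in OVX+RJ 1, 2 and 3 and at 98.2, 97.5 and 111 CPM in OVX 1, 2 and 3. Here the lowest and the highest library are both OVX+RJ, and the OVX values lie between them. The log2 fold change was 0.023 (SE 0.099, edgeR adjusted p = 0.989), with an interval from -13.1% to 17.6%.

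Of the beta subunits, which every common GABA-A receptor contains, Gabrb2 had the largest difference of the 7. Its level was 139, 151 and 149 CPM in OVX+RJ 1, 2 and 3 and 143, 125 and 139.9 CPM in OVX 1, 2 and 3. OVX+RJ 1 lies below both OVX 1 and OVX 3, so the groups overlap on this scale. With the factors of the trimmed mean of M values (TMM), of which that of OVX+RJ 1 is 0.978 and divides its CPM, Gabrb2 was the 1 subunit whose groups did not overlap, against 10.1% of all genes tested on that scale. Gabrb2 averaged 146 ± 6.54 CPM (SD) in OVX+RJ, against 136 ± 9.66 CPM in OVX. Its log2 fold change was 0.12 (SE 0.066), with an unadjusted p of 0.105 and an edgeR adjusted p of 0.986, and the interval runs from -1.7% to 20.0%.

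Gabrb1 was at 249, 264 and 271 CPM in OVX+RJ 1, 2 and 3 and at 256, 224 and 271 CPM in OVX 1, 2 and 3. OVX 2 is again the library below the rest. The log2 fold change was 0.075 (SE 0.071, edgeR adjusted p = 0.986), with an interval from -5.3% to 17.7%.

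Gabrg1, a gamma subunit known from a few brain regions and from glia, was the lowest of the 7 per kb of exons. It stood at 23.3, 24.5 and 27.7 CPM in OVX+RJ 1, 2 and 3 and at 28.5, 22.2 and 24.8 CPM in OVX 1, 2 and 3, and the OVX values span those of OVX+RJ. Both means were 25.2 CPM, with SDs of 2.23 in OVX+RJ and 3.16 in OVX (n = 3 each), and the log2 fold change was 0.013 (SE 0.11, edgeR adjusted p = 0.992, interval -14.2% to 18.9%). Gabrd, the delta subunit of extrasynaptic receptors, was at 14.1, 20.4 and 18.7 CPM in OVX+RJ 1, 2 and 3 and at 16.4, 17.0 and 19.1 CPM in OVX 1, 2 and 3. As for Gabra2, the lowest and the highest library are both OVX+RJ. The log2 fold change of Gabrd was 0.027 (SE 0.13, edgeR adjusted p = 0.990), and its interval, from -17.4% to 23.7%, was the widest of the 7.

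**Figure D2:**
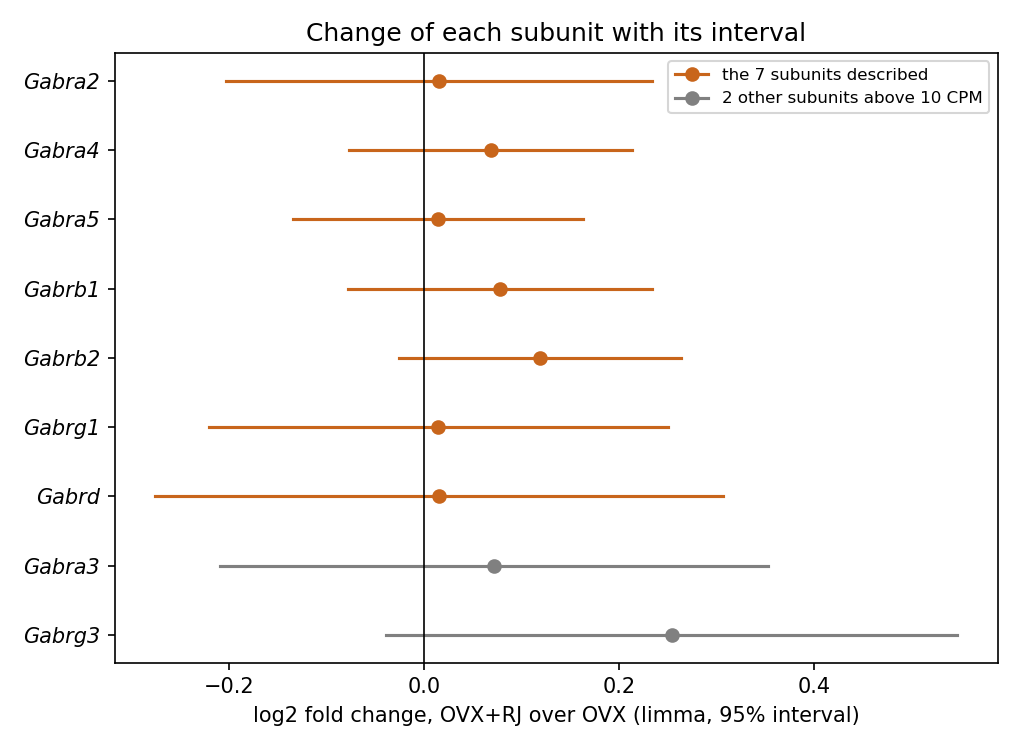
Log2 fold change of OVX+RJ over OVX (x axis) with its limma 95% interval for the 7 subunits (orange, top) and 2 other subunits above 10 CPM (grey). The intervals of all 7 include 0, from the narrowest around Gabrb2, Gabra4 and Gabra5 to the widest for Gabrd, and so do those of Gabra3 and Gabrg3.

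The number of subunits whose OVX+RJ and OVX values do not overlap was 0 of 7, against 10.5% of all genes tested. The signs of the folds of Gabra2, Gabra5, Gabrg1 and Gabrd changed with single libraries. Over the 6 libraries left out in turn, the log2 fold change of Gabra2 ran from -0.076 without OVX+RJ 2 to 0.13 without OVX+RJ 1, and that of Gabrd from -0.078 to 0.16 without the same libraries. That of Gabra5 ran from -0.033 without OVX 1 to 0.081 without OVX 2, and that of Gabrg1 from -0.069 without OVX 2 to 0.10 without OVX 1. Gabra4, Gabrb1 and Gabrb2 had positive values whichever library was left out, lowest without OVX 2, at 0.018, 0.0020 and 0.062. Without OVX+RJ 1, the library that stands apart, the log2 fold changes were 0.13 for Gabra2, 0.064 for Gabra4, -0.017 for Gabra5, 0.098 for Gabrb1, 0.14 for Gabrb2, 0.056 for Gabrg1 and 0.16 for Gabrd, and edgeR called 0 of the 7. The groups of Gabrb2 then did not overlap, 1 of the 7 subunits, against 20.8% of all genes tested with the same 2 and 3 libraries.

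Levels of different subunits were compared as CPM per kilobase of all annotated exons (GENCODE M21). Gabra5 was the highest of the 7, at 71.1 ± 1.49 CPM per kb in OVX+RJ and 71.1 ± 5.65 in OVX (SD, n = 3 each), and made up 44.5% to 51.0% of the summed level of the 7 per kb in each library. Gabrb2 followed at 23.0 ± 1.03 in OVX+RJ and 21.4 ± 1.52 in OVX. Gabra4 was at 19.2 ± 0.634 in OVX+RJ and 18.5 ± 1.24 in OVX, and Gabrb1 at 18.9 ± 0.823 in OVX+RJ and 18.1 ± 1.73 in OVX. The ranges over the 6 libraries of Gabrb2 (19.6 to 23.7), Gabra4 (17.1 to 19.9) and Gabrb1 (16.2 to 19.6) overlap from one to the next. Within a library, however, Gabrb2 was above Gabra4 in 6 of 6, by 1.15 to 1.26 times, while Gabra4 was above Gabrb1 in 4 of 6, so that only the order of Gabra4 and Gabrb1 changed between libraries. Gabra2 (11.3 to 15.4), Gabrd (4.91 to 7.09) and Gabrg1 (2.83 to 3.62) follow with no overlap.

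This order holds for the longest transcript as the length, but not for the coding length. Gabrb1 has 13.84 kb of exons and only 1.42 kb of coding sequence, while Gabra5 has 2.97 and 1.39 kb. Per kb of coding length Gabrb1 was first, at 184 ± 8.01 in OVX+RJ and 176 ± 16.9 in OVX, Gabra5 was next at 152 ± 3.19 in OVX+RJ and 152 ± 12.1 in OVX, and Gabrd was last. Reads of poly(A) RNA can fall anywhere along a transcript. How evenly they did so here, and which transcript forms these hippocampi use, was not measured. The order of the subunits and the share of Gabra5 in their summed level thus depend on the length chosen.

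**Figure D3:**
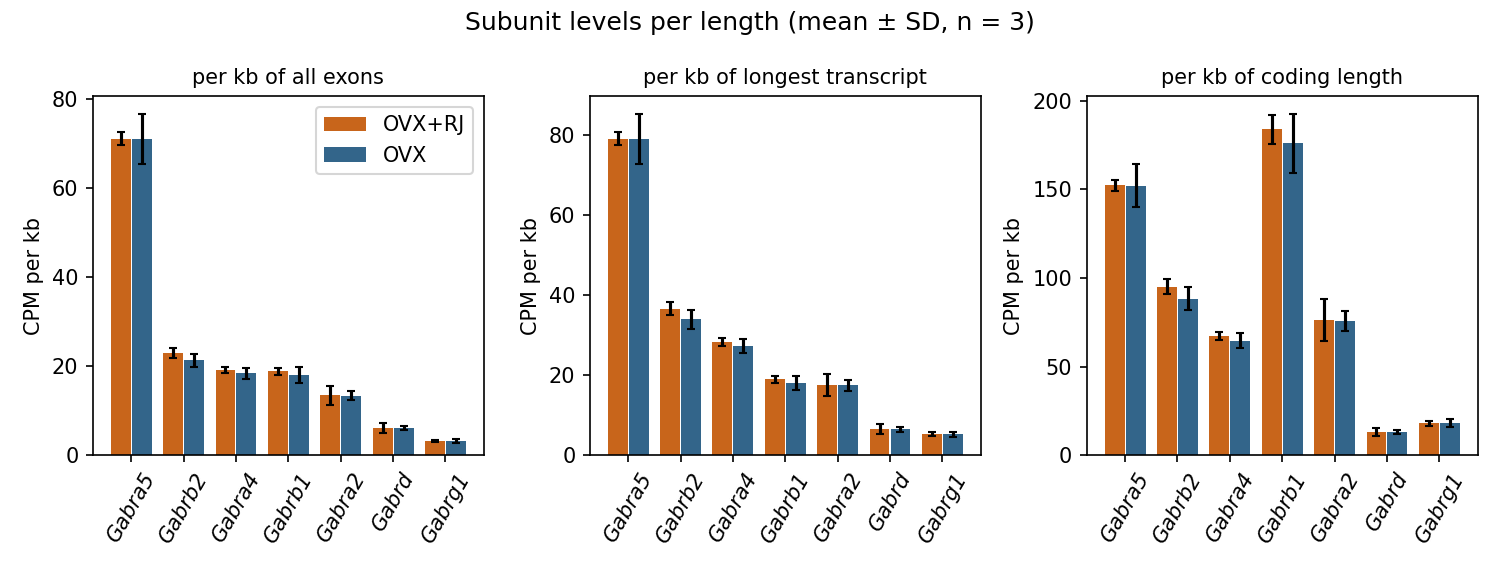
CPM per kb of each subunit in OVX+RJ and OVX (bars are means, error bars SD, n = 3), divided by the length of all exons, of the longest transcript and of the coding sequence. Gabra5 is about 71.1 CPM per kb in both groups in the left panel, and Gabrb1 becomes the highest bar only with the coding length.

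Ratios between subunits of one library need no scaling between libraries. The log2 ratio of Gabrd over Gabra4 counts was -3.03, -2.57 and -2.60 in OVX+RJ 1, 2 and 3 and -2.86, -2.61 and -2.57 in OVX 1, 2 and 3, a difference of -0.053. OVX+RJ 1 has the lowest ratio, and the other libraries overlap. Gabra5 over Gabra2 was 1.33, 0.83 and 0.97 in OVX+RJ 1, 2 and 3 and 1.02, 1.24 and 0.88 in OVX 1, 2 and 3, a difference of -0.0012, with both extremes in OVX+RJ. Gabrb2 over Gabrb1 was the steadiest of the 3 ratios, at -0.84, -0.81 and -0.86 in OVX+RJ 1, 2 and 3 and -0.84, -0.84 and -0.95 in OVX 1, 2 and 3, a difference of 0.041. In an exact two-sided permutation test of 3 against 3, whose smallest possible p is 0.1, the p values were 0.9, 1.0 and 0.6, each 1.0 after Benjamini-Hochberg adjustment over the 3 ratios. Without OVX+RJ 1 the differences were 0.097, -0.14 and 0.044, in the same order.

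The subunits differed in how much they varied over the 6 libraries, whatever the diet. The SD of log2 CPM was 0.076 for Gabra4, 0.081 for Gabra5, 0.095 for Gabrb2, 0.10 for Gabrb1, 0.13 for Gabrg1, 0.15 for Gabra2 and 0.18 for Gabrd. Among 10060 genes tested with a mean of at least 10 CPM, whose median SD was 0.10, 26.6% varied less than Gabra4 and 85.9% less than Gabrd. These genes were not matched to the subunits by level, and Gabrd, at 14.1 to 20.4 CPM, lies near the limit of 10 CPM. Its lowest library was OVX+RJ 1, the one that stands apart. The highest library had 1.44 times the CPM of the lowest for Gabrd and 1.16 times for Gabra4.

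On TMM-scaled log2 CPM centred on the mean of the 6 libraries, some pairs of subunits lay closer to each other than others. Gabra2 and Gabrd were the closest pair, with a root mean square difference of 0.037 in log2 CPM. Gabra2 was at -0.22, 0.20 and 0.045 in OVX+RJ 1, 2 and 3 and -0.073, -0.071 and 0.12 in OVX 1, 2 and 3, and Gabrd at -0.28, 0.21 and 0.091 in OVX+RJ and -0.11, -0.042 and 0.13 in OVX. Gabrb1 and Gabrb2 differed by 0.045 and Gabra4 and Gabrb2 by 0.048, each of these genes being lowest in OVX 2, at -0.19 for Gabrb1, -0.18 for Gabrb2 and -0.14 for Gabra4. Gabra5 was highest in that library, at 0.13, and Gabra5 and Gabrd were the least alike, at 0.20. The head-to-head pair Gabra4 and Gabrb1 differed by 0.069. How many other genes lay close was counted at a wider limit of 0.1. Of 9734 named genes averaging at least 10 CPM, 32.7% lay within 0.1 of Gabra4. The share was 21.5% for Gabrb2 and 17.7% for Gabrb1. It was lower for the closest pair, at 7.9% for Gabra2 and 4.1% for Gabrd. OVX 2 is also the deepest library, at 58163785 counts, against at most 40747748 for the rest, and the part of depth in these values was not tested.

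**Figure D4:**
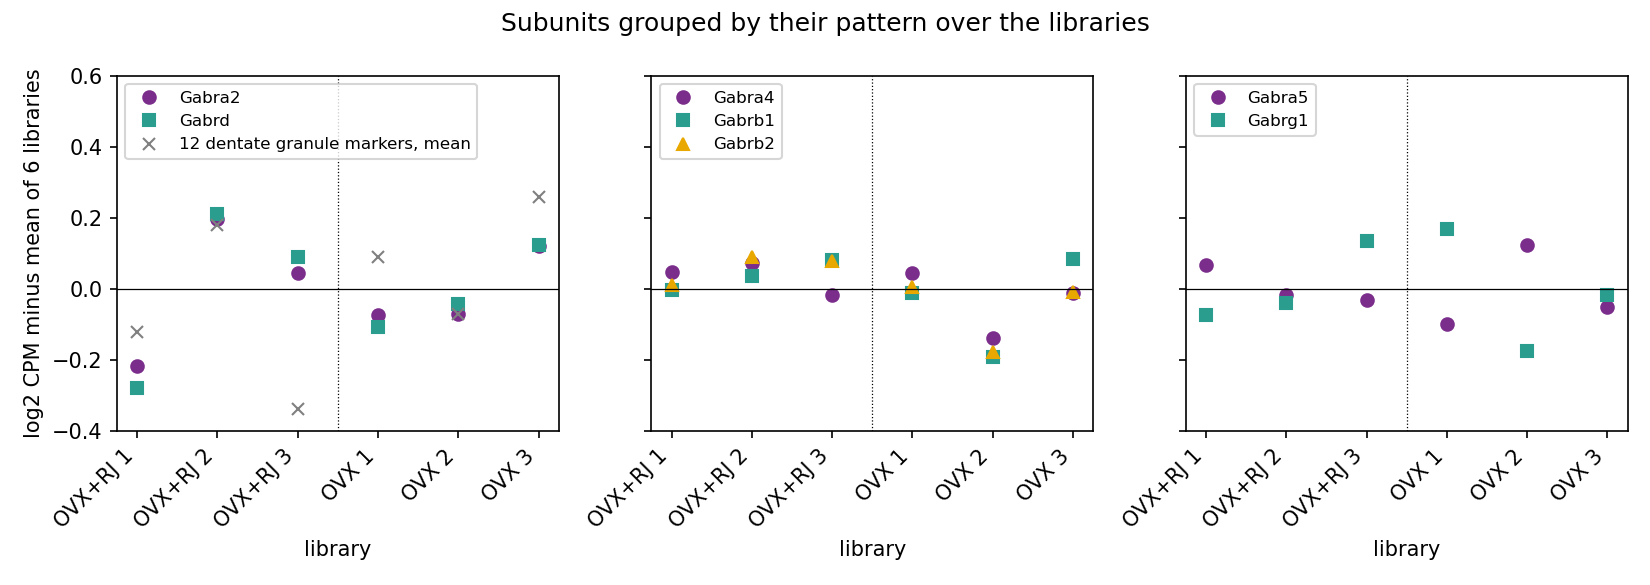
Log2 CPM of each subunit minus its mean over the 6 libraries (y axis), for the OVX+RJ libraries (left of the dotted line) and the OVX libraries, with the mean of 12 dentate granule markers as crosses. In the first panels subunits are placed together by their likeness, seen in these values. Gabra2 and Gabrd are lowest in OVX+RJ 1, and Gabra4, Gabrb1 and Gabrb2 in OVX 2. Gabra5 and Gabrg1 share the last panel without being alike, at a root mean square difference of 0.19. Gabrg1 too is lowest in OVX 2.

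The mean of the dentate granule markers on the same centred scale was -0.12, 0.18 and -0.34 in OVX+RJ 1, 2 and 3 and 0.089, -0.070 and 0.26 in OVX 1, 2 and 3. It has the same sign as Gabrd in 4 of the 6 libraries. In OVX+RJ 3 it is the lowest of all while Gabrd is above its mean, and in OVX 1 it is above its mean while Gabrd is below. Between the diets, 11 of the 12 granule markers had a negative log2 fold change and 1 a positive one. Their median was -0.14, while Gabrd had 0.027, and edgeR called 0 of the 12. CA1 markers, beside which Gabra5 may be set, had 0.051, -0.086 and 0.043 in OVX+RJ and 0.056, 0.067 and -0.13 in OVX. Astrocyte and oligodendrocyte precursor markers, for Gabrg1, ranged from -0.041 to 0.052 and from -0.12 to 0.14, with the highest value of both in OVX 2, where Gabrg1 was lowest. The part of these cell types in the subunit values was not tested.

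By the same measure, over 9734 named genes with a mean of at least 10 CPM, the genes most like each subunit in the 6 libraries were not other subunits. For Gabrd they were Sc5d, a sterol desaturase of cholesterol synthesis, Hcfc2 and Nol8, at differences of 0.027, 0.029 and 0.033. For Gabra2 they were Snrnp48, Ccnh, the cyclin of the CDK-activating kinase, and Usp45, at 0.025, 0.026 and 0.026. For Gabra5 they were Plpp7, Arpc4, a subunit of the actin-nucleating Arp2/3 complex, and Amph, the endocytic protein amphiphysin, at 0.016, 0.017 and 0.018. For Gabra4 they were Chka, a choline kinase, Neo1, the netrin receptor neogenin, and Sepsecs, at 0.020, 0.022 and 0.022. Cacnb4, a calcium channel subunit, was among the 3 nearest of both Gabrb1 (0.020) and Gabrb2 (0.028). The others were Lrp1b and Oip5os1 for Gabrb1, and Chpt1 and Tnrc6a for Gabrb2. For Gabrg1 they were Ncapd2, Gng4, a G protein gamma subunit, and Rab36, at 0.020, 0.032 and 0.032. With 6 libraries many genes lie close: 4.1% of these genes were within 0.1 of Gabrd and 37.2% within 0.1 of Gabra5.

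Of 9 other GABA-A subunits listed, 7 had a row and 4 were tested. Gabra6 and Gabrp were not analysed here. Gabrg3, a gamma subunit, had the lowest p of the 4, with a log2 fold change of 0.27 (SE 0.13, edgeR adjusted p = 0.986). It was at 35.7, 24.1 and 28.3 CPM in OVX+RJ 1, 2 and 3 and at 23.7, 24.1 and 25.6 CPM in OVX 1, 2 and 3, so that OVX+RJ 1 is the highest library and OVX+RJ 2 lies among the OVX values. Gabra3 had a log2 fold change of 0.084. Gabrq, the theta subunit, and Gabrr2, a rho subunit, stayed under 1 CPM in all 6 libraries, with -0.36 and 0.072. The medians of the 7 subunits described and of these 4 were 0.027 and 0.078, and no member of either was called.

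Of 67 further genes listed for GABA signalling, these other subunits included, 60 were tested, 37 with a positive and 23 with a negative log2 fold change and a median of 0.028, and 0 were called by edgeR. The groups did not overlap at 5 of them, or 8.3%, against 10.5% of all genes, and 4 of the 5 were higher and 1 lower in OVX+RJ. The list of receptor scaffolds and trafficking factors had 23 tested genes, 15 positive and 8 negative, with a median of 0.031. Its lowest p belonged to Insyn2a, Dmd, which encodes dystrophin, Ubqln1 and Gabarapl2, with log2 fold changes of 0.81, 0.096, 0.067 and 0.064. Insyn2a was at 2.23, 7.09 and 7.90 CPM in OVX+RJ 1, 2 and 3 and between 2.06 and 5.73 CPM in OVX, so that each group holds both high and low libraries. Gphn, the gephyrin scaffold of inhibitory synapses, had 0.042.

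Genes that make, release, take up and break down GABA were 7 positive and 3 negative of 10 tested, with a median of 0.046. Gad2, a GABA-synthesising enzyme, was at 168.4, 173 and 189 CPM in OVX+RJ 1, 2 and 3. It was at 168.2, 166 and 163 CPM in OVX 1, 2 and 3, without overlap, though OVX+RJ 1 and OVX 1 nearly met. The log2 fold change of Gad2 was 0.11 (SE 0.059, edgeR adjusted p = 0.986). Aldh5a1, which breaks down the product of GABA transamination, averaged 121 ± 0.541 CPM (SD) in OVX+RJ, against 115 ± 1.96 CPM in OVX, also without overlap. Glul and Slc38a1, which supply and carry glutamine, had log2 fold changes of -0.062 and 0.067. GABA-B receptor genes and their Kctd partners were 3 positive and 3 negative of 6, with Kctd16 at 0.17, Gabbr2 at 0.10, Kctd8 at -0.17 and Kctd12 at -0.036.

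The chloride gradient decides the direction of GABA-A currents, and 10 genes listed for it were 5 positive and 5 negative with a median of -0.0016. Slc12a7, Clcn3, Slc12a2, the sodium-potassium-chloride importer NKCC1, and Oxsr1 had the lowest p, with log2 fold changes of -0.34, 0.080, 0.11 and -0.10. Slc12a5, the neuronal chloride exporter KCC2, had 0.047. Genes of neurosteroid synthesis and of a peptide that binds the benzodiazepine site were 4 positive and 3 negative of 7 tested. Their median was 0.0067. Dbi, the precursor of that peptide, averaged 82.2 ± 2.32 CPM (SD) in OVX+RJ, against 88.3 ± 7.78 CPM in OVX, with -0.094 on the log2 scale. Akr1c14, Cyp11a1 and Star had -0.61, -0.20 and 0.12, the first of them at 0.156 to 1.79 CPM.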

How the data were processed

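The table deposited by the authors holds expected counts for each gene and library, with no scaling. HISAT2 2.2.1, StringTie 2.2.1, fastp 0.23.4, bcl2fastq 2.19 and the build GRCm39 appear in the submitters' processing notes without their roles. Annotation release and strand setting: not given in the sources used here. Values at 51 genes were not whole, none of them a subunit, and all were rounded. The tools were R 4.3.3, edgeR 4.0.16, limma 3.58.1 and DESeq2 1.42.0. After filterByExpr, 18629 genes were scaled by TMM (factors 0.978 to 1.01) and compared with glmQLFit and glmQLFTest, at a Benjamini-Hochberg adjusted threshold of 0.05. Standard errors and 95% intervals are limma's moderated ones on log2 CPM (prior count 2). Lengths and overlaps came from GENCODE M21 on GRCm38 and start-site windows from RefSeq on GRCm38.p6, which is not the build listed by the submitters, so windows and lengths may differ from those behind the counts. Named pathway genes are the 4 tested genes of each list with the lowest p. The genes most like a subunit are the 3 with the smallest root mean square difference, predicted genes left out. Gphn, Slc12a5 and Gm9962 were named outside these rules, with values or positions seen. The subunits and lists were chosen with earlier results of these data known. A few genes of the lists are not reported here and enter no list count or median.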

Additional observations from a re-analysis of the deposited data

How the results depend on the processing

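Other tests, scalings, filters and the replicate block left the log2 fold changes of all 7 subunits positive, though some barely so. The lowest were 0.0001 for Gabra5 and 0.0019 for Gabrg1, both with total counts and no further factor. The lowest adjusted p of any subunit, left-out libraries included, was 0.869. The number of genes called, 0 by the edgeR test, was 12 by DESeq2, 3 with robust empirical Bayes and 1 in the fit with a replicate block, and 0 to 8 with each library left out. No subunit had an unadjusted p under 0.05 in any setting. The labels give both groups replicate numbers 1 to 3 and state no pairing. Deviations of same-numbered libraries correlated at 0.046, -0.002 and 0.003, and OVX+RJ 2 and 3 did not correlate best with their own number. With 3 libraries a group these correlations cannot decide whether the numbers pair the libraries. With each library left out, log2 fold changes ran from -0.076 to 0.13 for Gabra2, 0.018 to 0.11 for Gabra4, -0.033 to 0.081 for Gabra5, 0.0020 to 0.14 for Gabrb1, 0.062 to 0.15 for Gabrb2, -0.069 to 0.10 for Gabrg1 and -0.078 to 0.16 for Gabrd. The difference in log2 ratio ran from -0.14 to 0.097 for Gabrd over Gabra4, -0.14 to 0.10 for Gabra5 over Gabra2 and 0.0045 to 0.059 for Gabrb2 over Gabrb1. The number of subunits whose groups do not overlap was 1 with TMM factors (10.1% of all genes) and 0 to 1 with libraries left out, against 18.8% to 22.3% of all genes; the 1 was Gabrb2 without OVX+RJ 1 and Gabra5 without OVX 2. Per kb of coding length 0 of the 7 subunits kept their rank, and 7 did for the longest transcript and without any 1 library. With 3 libraries a group, the intervals still hold changes of the sizes given beside each subunit. The causes of these shifts were not tested.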
